A study of Homo sapiens with 6 samples.

Results

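RNA-seq of 8505C cells was examined for 10 genes of glutathione synthesis, the NRF2 antioxidant programme and ferroptosis. They were chosen by gene name, with earlier results of these data known. All 10 had 1 row each among the 32985 genes of the table, and all 10 passed the filter on low values (FPKM averaging 1 or more over all 6 libraries, which 11725 genes reached). 8505C is an established line of anaplastic thyroid cancer (ATC). Cells labelled WT received control siRNA (siCtrl, 3 libraries) and cells labelled NUF2 knockdown received NUF2 siRNA (siNUF2, 3 libraries), with 24 h given for both groups. The study's methods name 1 NUF2 siRNA sequence, delivered by transient transfection, so both groups were transfected and the comparison holds 1 line and 1 siRNA. The labels do not say whether the libraries came from separate cultures, so the p-values measure the spread between these libraries, which may be technical.

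Glutathione is a small thiol made from cysteine, glutamate and glycine. Cystine, the oxidised form of cysteine, enters through the exchanger whose transport subunit is SLC7A11, and glutamate-cysteine ligase, a pair of the catalytic subunit GCLC and the modifier subunit GCLM, carries out the rate-limiting step of synthesis. GPX4 uses glutathione to reduce lipid peroxides in membranes, and ferroptosis is the iron-dependent cell death that follows when such peroxides build up. ACSL4 loads membranes with the polyunsaturated fatty acids that are oxidised in it, and AIFM2 (also called FSP1) restrains it apart from GPX4 by regenerating reduced coenzyme Q. NFE2L2 encodes NRF2, the transcription factor that binds antioxidant response elements near many of these genes, and KEAP1 is the adaptor through which NRF2 is ubiquitinated and degraded in unstressed cells. NQO1 and TXNRD1 are long-known NRF2 targets, a quinone reductase and the cytosolic thioredoxin reductase.

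The core of the antioxidant response element, TGACNNNGC, was searched on both strands in RefSeq promoters (GRCh38.p14, 250 bases before to 50 after a start), which were given for 9 of the 10 genes, in 14 promoters; SLC7A11 had no entry. Of these 9 genes, AIFM2, GCLM, KEAP1 and TXNRD1 held a match, while 16.1% of the 27305 genes with a promoter held one. The matches are shown because NRF2 binds such letters, with the core in capitals, 5′ to 3′ on the strand of the core.
GCLM (chr1:93909446-93909474, plus strand): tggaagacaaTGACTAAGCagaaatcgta
KEAP1 (chr19:10502784-10502812, plus strand): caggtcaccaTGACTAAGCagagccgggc
KEAP1 (chr19:10502807-10502835, minus strand): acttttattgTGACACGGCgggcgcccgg
TXNRD1 (chr12:104286920-104286948, minus strand): agagtcagaaTGACAAAGCagaaatccac
TXNRD1 (chr12:104215670-104215698, plus strand): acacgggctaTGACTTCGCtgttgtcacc
TXNRD1 (chr12:104215761-104215789, minus strand): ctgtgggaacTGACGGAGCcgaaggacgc
AIFM2 (chr10:70132829-70132857, plus strand): gggcggggcgTGACTCAGCactcgtgctg
The core of GCLM and that of the first KEAP1 match had the same 9 letters, TGACTAAGC. The AIFM2 core also contained TGACTCA, the letters of an AP-1 site. A match to these letters is not a measured binding site, and the window missed any element farther upstream.

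The longest annotated 3′ UTR of each gene (GENCODE release 44, at least 50 nt) was searched for TATGGAA, the 7-base word complementary to the seed (bases 2 to 8) of the siRNA guide against NUF2. SLC7A11 held 2 copies, GCLM held 1 and the other 8 genes held 0, whereas 16.1% of the 10174 tested genes with such a 3′ UTR held the word. The SLC7A11 3′ UTR was also long, at 7859 nt, against a median of 1503 nt. The sites are shown with the word in capitals, on the minus strand of GRCh38, which is the strand of both genes.
SLC7A11 (chr4:138164297-138164323): gttttcatctTATGGAAactcttgatg
SLC7A11 (chr4:138164268-138164294): tgtgcttttgTATGGAAtaaattttgg
GCLM (chr1:93886551-93886577): ggggatcatgTATGGAAttttttgatg
The 6-base word ATGGAA was present 3 times each in the 3′ UTRs of SLC7A11, GCLM and TXNRD1, once each in NFE2L2 and GCLC, and 0 times in KEAP1, GPX4, NQO1, ACSL4 and AIFM2, with 46.2% of tested genes holding it.

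Each library had between 61257859 and 69755291 counts on genes. NUF2, the targeted gene, was at 13.9 ± 1.41 FPKM (SD, n = 3) in siCtrl cells and 1.71 ± 0.290 FPKM (SD, n = 3) in siNUF2 cells, so the labels and the target went together. The labelled thyroid origin was visible in NKX2-1 (18.5 FPKM in siCtrl), while TG, SLC5A5 and FOXE1 had siCtrl means below 0.02 FPKM and PAX8 one of 0.575 FPKM. Of 5 epithelial markers, KRT8, KRT18 and KRT19 were above the filter, and CDH1 was listed at 0 in the siCtrl libraries. The summed FPKM of 7 blood, stromal and endothelial markers was between 6.05 and 10.2 in siCtrl and between 5.95 and 8.92 in siNUF2 libraries. Among replicate numbers, libraries with the same number deviated together from their group means (r from 0.328 to 0.438 across genes), so the fit with the replicate number as a block is given wherever it changed a call.

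In siCtrl cells TXNRD1 was the most abundant of the 10 genes at 63.9 ± 12.0 FPKM (SD, n = 3), followed by GPX4 at 48.2 ± 2.84 and NQO1 at 47.4 ± 18.5. ACSL4 (26.6 ± 1.67), NFE2L2 (16.5 ± 2.91) and KEAP1 (15.9 ± 3.17) lay in the middle. GCLM (6.54 ± 2.57), SLC7A11 (5.23 ± 0.685), AIFM2 (4.70 ± 0.665) and GCLC (4.12 ± 0.493) were lowest. Neighbours in this order whose siCtrl libraries did not overlap were TXNRD1 and GPX4, NQO1 and ACSL4, ACSL4 and NFE2L2, and KEAP1 and GCLM, and all other neighbours overlapped. Among the tested genes, TXNRD1 stood at the 95.4 percentile of siCtrl levels and GCLC at the 37.4 percentile. FPKM is scaled by transcript length, which is what allows levels of different genes to be set side by side.

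**Figure D1:**
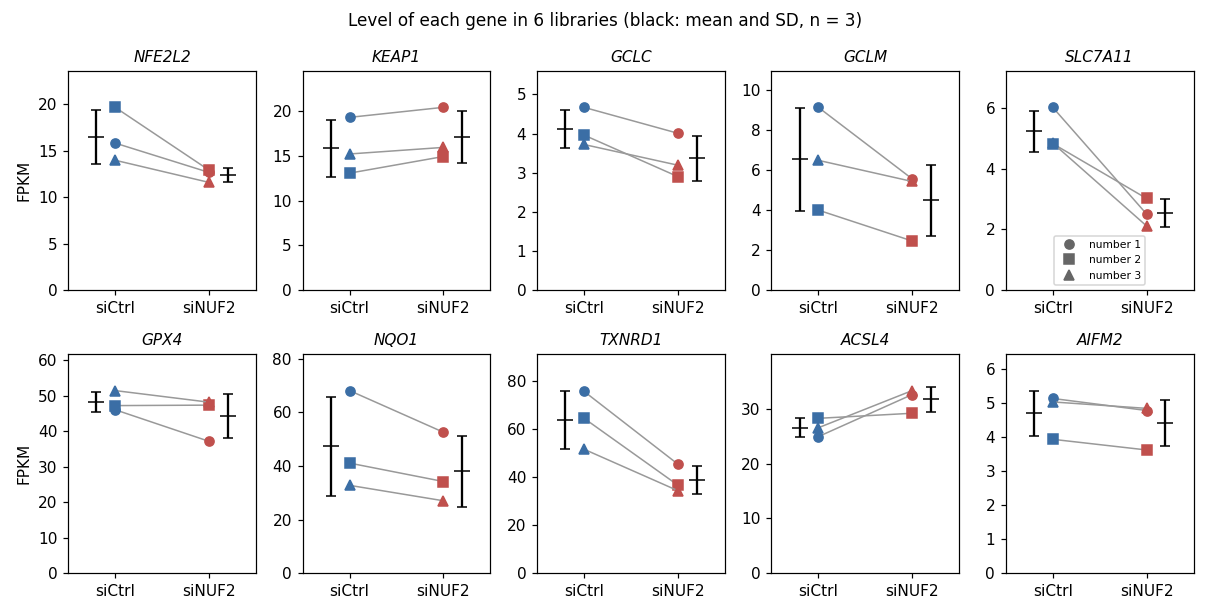
FPKM (vertical axis, from 0) of the 10 genes in the 3 siCtrl and 3 siNUF2 libraries, with lines joining libraries of the same replicate number and black marks for mean ± SD (n = 3). SLC7A11 fell from between 4.82 and 6.02 to between 2.11 and 3.02 FPKM, whereas the NQO1 lines ran nearly parallel and were set apart by replicate number.

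Between siNUF2 and siCtrl cells, 1 of the 10 genes passed edgeR's quasi-likelihood test at an adjusted p under 0.05, and it was SLC7A11, which fell. Over all 11725 tested genes 3.99% passed, 1.53% higher and 2.46% lower. Once replicate number entered as a block, 5 of the 10 passed, SLC7A11, TXNRD1, NFE2L2, GCLM and NQO1. All 5 were lower, and of all tested genes 14.5% then passed, 6.64% higher and 7.91% lower. The median log2 fold change of the 10 genes was -0.29, with 8 below 0, beside a median of 0.01 and 48.9% below 0 over all tested genes. In bulk RNA a fall in a gene's mean level in all cells and a smaller share of cells that express it cannot be told apart.

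**Figure D2:**
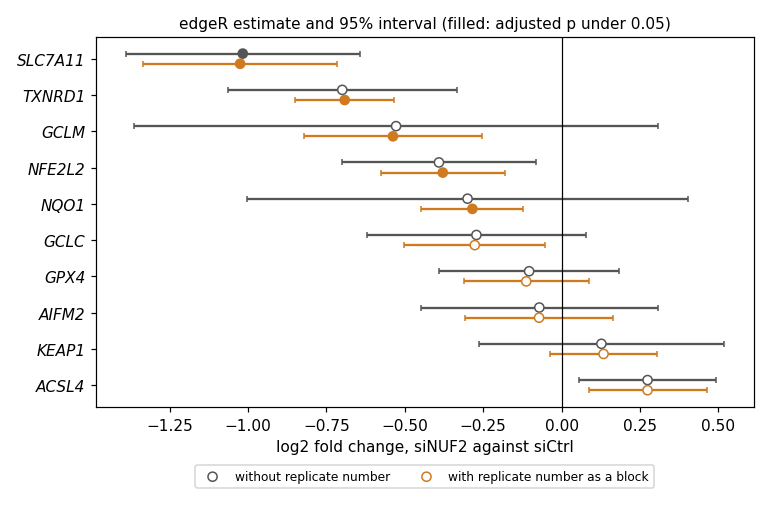
log2 fold change of siNUF2 against siCtrl (horizontal axis) with 95% intervals from edgeR, without (grey) and with (orange) the replicate number as a block; filled points had an adjusted p under 0.05. The estimates hardly move between the fits, while the intervals of GCLM and NQO1 shrink most, from -1.36 to 0.31 and from -1.003 to 0.40 down to -0.82 to -0.25 and -0.45 to -0.12.

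SLC7A11 (ENSG00000151012, chromosome 4, 138164097 to 138242349), the cystine transporter, was the gene with the largest change of the 10. Libraries 1, 2 and 3 had an FPKM of 6.02, 4.82 and 4.84 with siCtrl, and of 2.51, 3.02 and 2.11 with siNUF2. Every siNUF2 library lay below every siCtrl library, as was the case for 13.4% of all tested genes. The siNUF2 mean of 2.55 ± 0.454 FPKM (SD, n = 3) was 48.7% of the siCtrl mean, and the log2 fold change was -1.02 ± 0.16 (SE; edgeR adjusted p = 0.0158). Under the block, the edgeR adjusted p was 0.00357. Between 1465 and 4675 counts per library stood behind these values. SLC7A11 passed in 4 of the 6 fits that each left out 1 library. Without siCtrl library 1 the edgeR adjusted p was 0.0609 and without siNUF2 library 1 it was 0.0752. The log2 fold changes in these fits were -0.90 and -0.997. Over all tested genes, these fits called 165 and 124, against 468 with all libraries. SLC7A11 is also the gene of the 10 with 2 copies of the siRNA seed word, shown above, and the part of these sites in its fall was not tested.

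TXNRD1 (ENSG00000198431, chromosome 12, 104215779 to 104350307), the selenoprotein that keeps thioredoxin reduced, showed the second largest difference. Libraries 1, 2 and 3 were at 75.7, 64.5 and 51.6 FPKM with siCtrl and at 45.4, 36.7 and 34.4 FPKM with siNUF2. Both groups were ordered alike by number. They did not overlap, with siNUF2 lower, as for 13.4% of all tested genes. Each siNUF2 library held between 56.9% and 66.6% of the level in the siCtrl library of its number. The log2 fold change was -0.70 ± 0.16 (SE), and the edgeR adjusted p was 0.0523, just above the threshold. As a block, the replicate number brought it to 0.00143 at a log2 fold change of -0.69, and without siCtrl library 3 it was 0.0432. Counts ranged from 16592 to 40916 per library. Within the TXNRD1 gene and on its strand lies RPL18AP3, a processed pseudogene of a ribosomal protein gene, at 168 ± 13.1 FPKM (SD, n = 3) in siCtrl and 179 ± 18.5 in siNUF2 cells. How reads at overlapping genes were assigned is not given in the sources used here.

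The NRF2 gene itself, NFE2L2 (ENSG00000116044, chromosome 2, 177227595 to 177287777), had an FPKM of 15.8, 19.7 and 13.98 in siCtrl and 12.7, 12.9 and 11.6 in siNUF2 libraries. The siNUF2 libraries were all below the siCtrl libraries, as for 13.4% of all tested genes. They were also closer to each other, with an SD of 0.703 against 2.91 FPKM. Its mean was at 75.1% of control, with a log2 fold change of -0.39 ± 0.13 (SE; edgeR adjusted p = 0.174). With the block, its log2 fold change was -0.38 and its edgeR adjusted p 0.0260. These are mRNA levels, whereas NRF2 is controlled largely at the level of protein stability.

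KEAP1 (ENSG00000079999, chromosome 19, 10486125 to 10503356) did not pass in either fit. Its FPKM was 19.3, 13.1 and 15.2 in siCtrl and 20.4, 14.9 and 16.0 in siNUF2 libraries, which overlap. The log2 fold change was 0.13 with an interval from -0.26 to 0.52, and with the block from -0.04 to 0.31. In each of the 3 same-numbered pairs the siNUF2 library was the higher, at between 105% and 114% of its siCtrl partner.

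The subunits of glutamate-cysteine ligase differed in how much they varied. GCLM (ENSG00000023909, chromosome 1, 93885199 to 93909456) was at 9.14, 3.9997 and 6.49 FPKM in siCtrl and 5.56, 2.46 and 5.43 in siNUF2 libraries, so the groups overlapped although the siNUF2 library was the lower one in every same-numbered pair. Its log2 fold change was -0.53 ± 0.36 (SE; edgeR adjusted p = 0.515), and with the block it was -0.54 ± 0.12 (SE; edgeR adjusted p = 0.0272). Like SLC7A11, GCLM carries the seed word in a long 3′ UTR (3791 nt, against a median of 1503 nt). The part of this site in the difference was not tested. GCLC (ENSG00000001084, chromosome 6, 53497341 to 53616970) was at 4.67, 3.96 and 3.72 FPKM in siCtrl and 4.01, 2.90 and 3.19 in siNUF2 libraries. It was lower within each number, but the groups overlapped and neither fit passed the threshold (log2 fold change -0.27, adjusted p = 0.405 in edgeR and 0.1005 with the block).

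Within a library, the FPKM of GCLC over that of GCLM was 0.511, 0.990 and 0.573 in siCtrl and 0.721, 1.18 and 0.588 in siNUF2 libraries. Library 2 had the highest ratio in both groups. The mean ratio was 0.692 ± 0.261 (SD, n = 3) in siCtrl and 0.830 ± 0.311 (SD, n = 3) in siNUF2 cells, a difference smaller than the SD of either group (exact permutation test on log2 ratios, two-sided, p = 0.5, where 3 against 3 allows no p below 0.1). That test does not use the replicate number. In all 3 same-numbered pairs the siNUF2 library had the higher ratio, and an exact sign-flip test over the pairs, added after the data were seen, gave p = 0.25 (two-sided), the smallest that 3 pairs allow.

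NQO1 (ENSG00000181019, chromosome 16, 69706996 to 69726668) was the member with the widest spread in FPKM in siCtrl cells, at 68.1, 41.1 and 32.8, and in siNUF2 cells it was at 52.6, 34.3 and 27.1. The order by replicate number was the same in both groups, and the siNUF2 library was at 77.2%, 83.3% and 82.5% of its partner. The groups overlapped, with a log2 fold change of -0.30 ± 0.31 (SE; edgeR adjusted p = 0.684). With the block the log2 fold change was -0.28 ± 0.07 (SE), and NQO1 passed with an edgeR adjusted p of 0.0355.

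The genes that act against lipid peroxides, GPX4 and AIFM2, had the smallest log2 fold changes of the 10. GPX4 (ENSG00000167468, chromosome 19, 1103926 to 1106788) was at 46.1, 47.2 and 51.4 FPKM in siCtrl and 37.2, 47.4 and 48.2 in siNUF2 libraries. Library 1 of the siNUF2 group was the lowest and the other two lay among the siCtrl values. Its log2 fold change was -0.10, with an interval from -0.39 to 0.18. AIFM2 (ENSG00000042286, chromosome 10, 70098223 to 70132934) was at 5.14, 3.94 and 5.04 FPKM in siCtrl and 4.78, 3.62 and 4.85 in siNUF2 libraries, with a log2 fold change of -0.07 and an interval from -0.45 to 0.31. For both genes these intervals still allow a change of either sign.

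ACSL4 (ENSG00000068366, chromosome X, 109624244 to 109733392) had the highest log2 fold change of the 10 genes. Its FPKM was 24.9, 28.2 and 26.5 in siCtrl and 32.6, 29.2 and 33.3 in siNUF2 libraries. All siNUF2 libraries were above all siCtrl libraries, as for 10.5% of tested genes, though libraries 2 of the groups differed little (103% against 131% and 126% for numbers 1 and 3). The log2 fold change was 0.27 ± 0.09 (SE), and the edgeR adjusted p was 0.178, or 0.0630 with the block, so ACSL4 did not pass the threshold.

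How the spread over the 6 libraries divided between the siRNA and the replicate number set these genes apart. On log2 CPM, the siRNA accounted for 88.5% of the sum of squares of SLC7A11, 77.3% of that of ACSL4, 75.8% of that of TXNRD1 and 61.4% of that of NFE2L2. The replicate number accounted for 95.7% in AIFM2, 89.0% in NQO1, 88.3% in KEAP1 and 75.2% in GCLM. Over all tested genes, the medians were 22.8% for the siRNA and 46.9% for the number. With 3 numbers and 2 siRNA groups, random spread alone gives the number the larger share, so the 2 shares are not directly comparable. GPX4 had the largest share that went with neither, at 22.9%. What a number shares is not stated in the labels or the study's text.

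**Figure D3:**
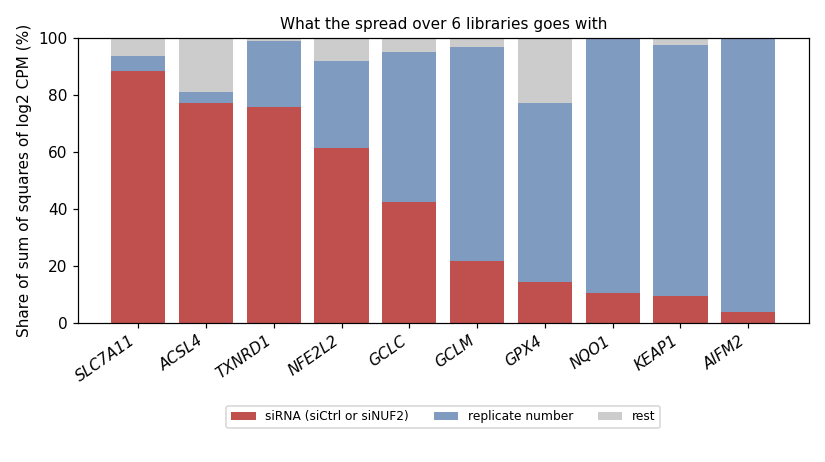
Share (vertical axis, %) of the sum of squares of log2 CPM over the 6 libraries that went with the siRNA (red), the replicate number (blue) and neither (grey), for each of the 10 genes. SLC7A11 at 88.5% and AIFM2 at 3.82% mark the ends of the siRNA share.

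Across the 6 libraries, the log2 CPM of SLC7A11 was most like that of MFSD11 (Pearson r = 0.989), KCTD6 (0.988) and LRATD2 (0.987), of which LRATD2 passed edgeR's test (log2 fold change -1.05, adjusted p = 0.0189). Among the other 9 genes, r with SLC7A11 was highest for TXNRD1 (0.90) and lowest for ACSL4 (-0.98). The levels of NFE2L2 were most like those of RRP12 (0.994), FBXO5 (0.993) and WDFY3 (0.991). These values are descriptions over 6 libraries that share 2 groups and 3 numbers, and 269 genes had an r above 0.9 with SLC7A11 and 197 with NFE2L2.

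The other genes of these pathways were described through 8 lists, which overlap one another and contain the 10 genes where they belong. Together with the 10 they held 179 genes, of which 145 were tested. Of these, 2 rose and 6 fell at an adjusted p under 0.05 in edgeR, with a median log2 fold change of -0.04, which makes 5.52% called beside the 3.99% of all tested genes. Under the block, 7 rose and 19 fell, or 17.9% beside 14.5%. Because the genes were chosen with earlier results of these data known, these shares do not describe an independently chosen set.

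Among 17 tested regulators of NRF2 and its partners (of 18 listed), NFE2L1 rose and none fell. NFE2L1 encodes NRF1, a relative of NRF2 known for activating proteasome genes. It was at 24.9, 16.1 and 20.9 FPKM in siCtrl and 40.2, 31.6 and 32.2 in siNUF2 libraries (log2 fold change 0.77, adjusted p = 0.0469 from edgeR). The groups did not overlap, with siNUF2 higher, as for 10.5% of all tested genes. NFE2L1 passed in 4 of 14 alternative settings, and in 0 of the 6 fits that each left out 1 library. The median log2 fold change of the list was 0.05, and 1.53% of all tested genes rose. With the block, RBX1, the RING subunit of the ligase that KEAP1 serves, and NFE2L2 fell as well, with an edgeR adjusted p of 0.0239 for RBX1.

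Of 37 listed NRF2 target genes, 36 had a row and 30 were tested. FTL and SLC7A11 fell, none rose, and the median log2 fold change was -0.08. Called genes made up 6.67% of those tested in this list, beside 3.99% of all tested genes. FTL encodes the light chain of ferritin, the iron store. It was among the most abundant genes of the lists, at 1240 ± 164 FPKM (SD, n = 3) in siCtrl and 564 ± 83.6 in siNUF2 cells, with a log2 fold change of -1.12 ± 0.14 (SE; edgeR adjusted p = 0.00746). FTL has processed pseudogenes, and how multiply aligned reads were counted is not given in the sources used here. With the block 8 genes of this list fell and 1 rose, AKR1B1, where 7.91% of all tested genes fell and 6.64% rose. The 8 were FTL, SLC7A11, TXNRD1, GCLM, NQO1, HMOX1 (haem oxygenase, log2 fold change -0.53 with the block), GSR (glutathione reductase, -0.41) and CBR1 (a carbonyl reductase, -0.27).

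In glutathione synthesis and use, 35 of 47 listed genes were tested, 3 fell and none rose, with a median log2 fold change of -0.06. The called share was 8.57%, beside 3.99% of all tested genes. Besides SLC7A11, the genes that fell were GLRX5, a mitochondrial glutaredoxin of iron-sulphur cluster assembly, and GSTCD, a protein with a glutathione S-transferase-like domain. GLRX5 went from 33.0 ± 3.94 to 17.1 ± 1.04 FPKM (SD, n = 3; log2 fold change -0.93, adjusted p = 0.00746 from edgeR). GSTCD went from 2.31 ± 0.307 to 1.15 ± 0.113 FPKM (SD, n = 3; log2 fold change -0.98, adjusted p = 0.0230 from edgeR), and it passed in 1 of the 6 fits that left out a library. The seed word TATGGAA was present 3 times in the 3′ UTR of GSTCD (2148 nt) and 1 time in that of GLRX5 (1451 nt). It was present 0 times in that of FTL, which is short (144 nt). The part of these sites was not tested.

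Of 18 tested thioredoxin, peroxiredoxin and superoxide enzymes (19 listed), PRDX4 rose and none fell, and the median log2 fold change was 0.06. Among all tested genes 1.53% rose. PRDX4, the peroxiredoxin of the endoplasmic reticulum, was at 46.6, 43.6 and 45.7 FPKM in siCtrl and 84.0, 85.8 and 91.8 in siNUF2 libraries. This gap was far larger than the spread between replicates (log2 fold change 0.96 ± 0.09 SE, edgeR adjusted p = 0.00256). The block added PRDX6 (log2 fold change 0.26), which rose, and TXNRD1 and TXNRD2, the mitochondrial thioredoxin reductase (-0.49), which fell.

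Of the genes that drive ferroptosis, 16 of 26 listed were tested and 0 passed edgeR's test, with 3 at an unadjusted p under 0.05 (as were 18.2% of all tested genes) and 1 past the threshold in DESeq2. The smallest p belonged to FAR1, an enzyme of ether lipid synthesis (log2 fold change -0.52, adjusted p = 0.0951 from edgeR, and 0.00789 with the block), and FADS1, a fatty acid desaturase (-0.40, adjusted p = 0.160). The lipoxygenase genes ALOX5, ALOX12, ALOX12B, ALOX15B and ALOXE3 were below the filter, with siCtrl means of at most 0.639 FPKM. ALOX15 had no row under that name.

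Of 27 genes that restrain ferroptosis, all were tested and SLC7A11 and FTL fell, with a median log2 fold change of -0.16. The called share was 7.41%, beside 3.99% of all tested genes. With the block 7 fell and 4 rose, where 7.91% of all tested genes fell and 6.64% rose. Those that fell with the block were SLC7A11, FTL, GCLM, NFE2L2, SCD and ACSL3, enzymes of monounsaturated fatty acid synthesis and activation (-0.73 and -0.53), and MBOAT1, a phospholipid acyltransferase (-0.60). Those that rose with the block included PDSS2, of coenzyme Q synthesis (0.62), NFS1, the cysteine desulphurase of iron-sulphur clusters (0.48), and PRDX6.

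GPX4 and TXNRD1 contain selenocysteine, and 8 of 10 listed genes for selenium supply and selenoprotein synthesis were tested. LRP8, a receptor that takes up selenoprotein P in many cells, fell from 3.94 ± 0.754 to 2.40 ± 0.247 FPKM (SD, n = 3; log2 fold change -0.69, adjusted p = 0.0468 from edgeR). SECISBP2L, a relative of the protein that binds the selenocysteine insertion element, fell from 3.28 ± 0.00746 to 2.00 ± 0.159 FPKM (SD, n = 3; log2 fold change -0.69, adjusted p = 0.0190 from edgeR). LRP8 passed in 4 and SECISBP2L in 7 of 13 alternative settings, and each passed in 1 of the 6 fits that left out a library. The list's median log2 fold change was -0.16. Of its 8 tested genes 2 fell, where 2.46% of all tested genes did. TATGGAA was present once in the 3′ UTR of LRP8 (4654 nt, against a median of 1503 nt) and 0 times in that of SECISBP2L. In NFE2L1 (1904 nt) and PRDX4 (271 nt), the listed genes that rose, it was present 0 times. Of the tested genes with a 3′ UTR, 16.1% held it. The part of these sites in the changes was not tested.

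For NADPH supply, on which both glutathione reductase and thioredoxin reductase draw, 18 of 20 listed genes were tested. None passed in edgeR with or without the block or in DESeq2, 0 had an unadjusted p under 0.05 in edgeR, and the median log2 fold change was 0.00. IDH1 and ME1, cytosolic enzymes that make NADPH, had the smallest p, with log2 fold changes of -0.27 (adjusted p = 0.338 from edgeR) and 0.41 (0.364).

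**Figure D4:**
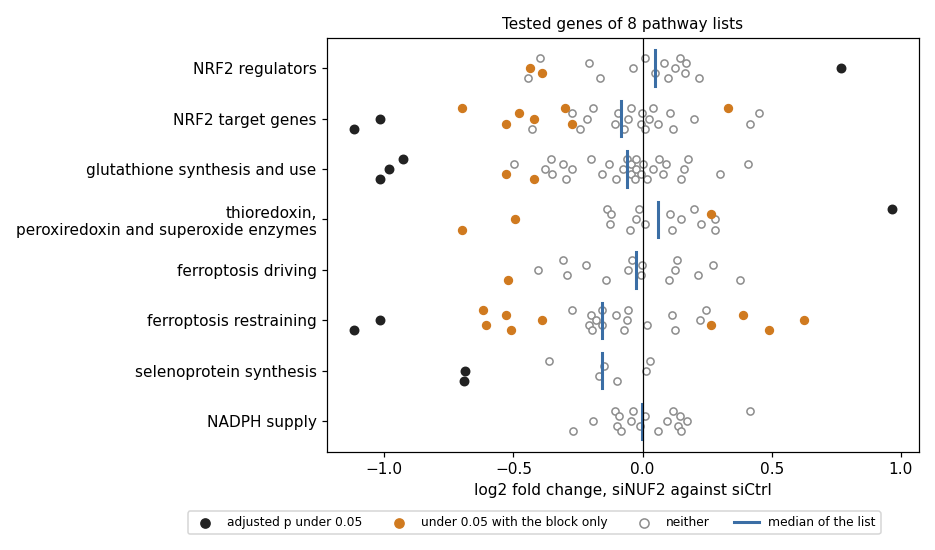
log2 fold change of siNUF2 against siCtrl (horizontal axis) for the tested genes of 8 overlapping pathway lists, with black points for an adjusted p under 0.05 in edgeR, orange for genes under 0.05 with the replicate block only, open points for neither, and a blue bar at the median of each list. The medians lie between -0.16 and 0.06, and the black points are NFE2L1 and PRDX4 on the right and FTL, SLC7A11, GSTCD, GLRX5, LRP8 and SECISBP2L on the left.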

How the data were processed

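Poly(A) RNA of 8505C cells was sequenced as paired-end reads in 3 siCtrl and 3 siNUF2 libraries. Per the submitters' processing notes and the study's methods, the authors used fastp, HISAT2 (GRCh38) and StringTie; versions, annotation release, strand setting and the tool that made the counts are not given in the sources used here. The authors deposited FPKM and whole-number counts per gene, without pooling. Genes averaging 1 FPKM or more were tested on counts with edgeR 4.0.16 (R 4.3.3; TMM, quasi-likelihood test, Benjamini-Hochberg adjustment, threshold 0.05, no block); standard errors are the log2 fold change over the square root of F. Intervals are at 95%. Code was tested on simulated data. Libraries of 1 group differed beyond counting noise (chi-square over its degrees of freedom, 90.1 to 132). Same-numbered libraries correlated at r = 0.422, 0.328 and 0.438 in their deviations, and other pairs at -0.269 to -0.140, so the numbers pair the libraries; this pairing comes from the data. The alternatives were DESeq2 1.42.0 and its size factors, limma 3.58.1 on log2(FPKM + 1) and log2(FPKM + 0.1), an F-test, other filters, the replicate block and leaving out each library. The members and lists were chosen with earlier results of these data known. In each list, genes past the threshold were named, up to 4 per direction, or else the 2 with the smallest p; the genes that passed only with the block were named after their values were seen. Other experiments of the study were not analysed here. Single values of some listed genes are not reported here.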

Additional observations from a re-analysis of the deposited data

How the results depend on the processing

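ACSL4 and GCLC kept their direction and their side of the threshold in all alternatives run for them. With the replicate block, the log2 fold changes of NFE2L2 (-0.38), GCLM (-0.54), NQO1 (-0.28) and TXNRD1 (-0.69) passed the threshold, as that of TXNRD1 did with DESeq2 (-0.70) and with a mean FPKM of at least 5 (-0.72); no other call of the 10 genes changed with the block. SLC7A11 did not pass in the F-test on log2(FPKM + 1) (-0.81, adjusted p = 0.110 without a model shared across genes). With each library left out, log2 fold changes ranged from -1.17 to -0.90 for SLC7A11, -0.83 to -0.56 for TXNRD1, -0.01 to 0.29 for KEAP1, -0.17 to 0.01 for GPX4, -0.60 to 0.06 for NQO1 and -0.19 to 0.05 for AIFM2. The signs that turned were KEAP1 at -0.0116 and GPX4 at 0.0134 without siNUF2 replicate 1, NQO1 at 0.0566 without siCtrl replicate 1 and AIFM2 at 0.0482 without siNUF2 replicate 2. The log2 ratio of GCLC to GCLM ranged from -0.02 to 0.55, against 0.26 with all libraries, and was -0.0249 without siNUF2 replicate 2. The cause of these shifts was not tested. Of the 10 genes, 5 passed with the block, 2 with DESeq2, 0 in the F-test and 0 to 2 with a library left out. Over all genes, 468 passed, against 1705 with the block, 972 with DESeq2, 78 in the F-test, 188 with no filter and 124 to 251 with a library left out, where fewer samples entered.

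For the lists, in the order NRF2 regulators, NRF2 targets, glutathione, thioredoxin, ferroptosis driving and restraining, the block gave 3, 9, 5, 4, 1 and 11 genes past the threshold (against 1, 2, 3, 1, 0 and 2). DESeq2 gave 2 for thioredoxin, 1 for ferroptosis driving and 6 for ferroptosis restraining genes. The F-test gave 0 for the regulators, targets, glutathione and restraining lists and 1 for selenoprotein synthesis (against 2). Either pseudocount in limma gave 0 regulators and 1 selenoprotein synthesis gene, and no filter gave 0 and 0. A mean FPKM of at least 5 gave 1 glutathione, 2 thioredoxin, 1 restraining and 0 selenoprotein synthesis genes. That filter left SLC7A11, GSTCD, LRP8 and SECISBP2L untested, so they could not pass under it. With a library left out, the numbers were 0 for regulators, 1 to 3 for targets, glutathione and restraining genes, 1 to 2 for thioredoxin and 0 to 1 for selenoprotein synthesis. NFE2L1 passed in 4 of 14 alternatives, LRP8 in 4, SECISBP2L in 7 and GSTCD in 6 of 13, while PRDX4 passed in all 14.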
